A study of Homo sapiens with 18 samples.

Results

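The genes described here are the ligands and receptors of the TNF superfamily, taken as every protein-coding gene whose symbol starts with TNFSF or TNFRSF together with TNF, LTA, LTB, LTBR, FAS, FASLG, CD27, CD70, CD40, CD40LG, NGFR and EDAR. They came to 45 of the 58051 genes listed, 18 of them ligands and 27 receptors. RNA-seq covered 18 libraries from THP-1 cells, a human cell line of monocytic leukaemia origin that takes on macrophage features when treated with the phorbol ester PMA. The cells had been transduced with 1 of 3 GFP-marked MSCV retroviral vectors: the empty one (IRES), one encoding active intracellular NOTCH1 with a MYC tag (NIC1), or one encoding DNMAML, a Mastermind-like fragment that acts as a dominant negative and blocks transcription by the Notch complex. GFP-positive cells were sorted, and PMA (5 ng/ml) was applied for 48 h to every group. Each construct was then either left unstimulated or given IL-4 at 20 ng/ml for 3 h. The 6 groups held 3 libraries each, from experiments numbered 1, 2 and 3. Whether the libraries of a group came from separate transductions or cultures is not in the labels, so a p-value here speaks of the spread among these libraries only. All 6 groups, the empty-vector control included, had been through transduction, sorting and PMA.

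TNF superfamily ligands are mostly membrane proteins that act as trimers, and some are cut from the cell surface to act at a distance. Some of their receptors carry a death domain, as FAS, TNFRSF1A, TNFRSF10A and TNFRSF10B do. Others bind TRAF adaptors that lead to NF-kappaB and kinase signalling, as CD40, LTBR, TNFRSF1B, TNFRSF9 and TNFRSF11A do, and a few are decoys. Macrophages are a main source of TNF, and they use the family to exchange signals with T cells, B cells and stromal cells.

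Promoter windows of genes on which the results turn are printed first, because 3 of them rose together with IL-4 and the other followed the Notch construct. No window was found for CD70, which fell with IL-4 in each construct. The windows are RefSeq sequences of build GRCh38.p14, each from 250 bases before to 50 bases after an annotated start. They are read 5′ to 3′ on the strand of the gene. Capitals mark matches, on either strand, to the RBPJ core TGGGAA, the STAT6 site (TTC, any 4 bases, GAA) or the NF-kappaB consensus.
LTB (chr6:31582375-31582674, minus strand): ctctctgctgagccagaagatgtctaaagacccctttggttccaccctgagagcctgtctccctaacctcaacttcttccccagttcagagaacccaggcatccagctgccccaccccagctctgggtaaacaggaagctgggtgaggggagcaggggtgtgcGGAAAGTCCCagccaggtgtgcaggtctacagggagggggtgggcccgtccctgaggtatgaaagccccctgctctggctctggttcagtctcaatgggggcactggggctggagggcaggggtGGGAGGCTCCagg
TNFRSF19 (chr13:23579110-23579409, plus strand): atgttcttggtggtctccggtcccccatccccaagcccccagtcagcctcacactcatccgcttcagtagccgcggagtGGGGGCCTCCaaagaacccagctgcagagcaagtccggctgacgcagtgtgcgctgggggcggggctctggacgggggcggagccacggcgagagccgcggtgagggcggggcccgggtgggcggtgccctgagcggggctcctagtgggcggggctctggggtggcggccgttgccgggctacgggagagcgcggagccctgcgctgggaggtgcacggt
TNFRSF19 (chr13:23570162-23570461, plus strand): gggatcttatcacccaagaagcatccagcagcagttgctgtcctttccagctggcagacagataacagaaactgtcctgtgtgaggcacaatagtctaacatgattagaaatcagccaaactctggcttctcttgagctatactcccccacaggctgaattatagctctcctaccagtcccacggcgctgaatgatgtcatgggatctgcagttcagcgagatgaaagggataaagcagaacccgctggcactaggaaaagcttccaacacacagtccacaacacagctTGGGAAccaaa
TNFRSF11A (chr18:62325060-62325359, plus strand): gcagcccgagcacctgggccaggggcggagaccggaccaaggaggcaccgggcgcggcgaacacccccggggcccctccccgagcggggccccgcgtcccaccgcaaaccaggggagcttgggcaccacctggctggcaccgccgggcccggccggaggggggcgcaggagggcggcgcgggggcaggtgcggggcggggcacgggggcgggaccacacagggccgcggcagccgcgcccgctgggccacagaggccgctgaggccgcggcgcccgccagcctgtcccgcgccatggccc
FAS (chr10:88990548-88990847, plus strand): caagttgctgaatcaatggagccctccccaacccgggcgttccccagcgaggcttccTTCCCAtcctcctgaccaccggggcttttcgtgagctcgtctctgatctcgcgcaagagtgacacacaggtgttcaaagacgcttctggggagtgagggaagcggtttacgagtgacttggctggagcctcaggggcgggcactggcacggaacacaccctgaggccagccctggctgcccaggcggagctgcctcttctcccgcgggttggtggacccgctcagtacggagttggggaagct
FAS (chr10:88991181-88991480, plus strand): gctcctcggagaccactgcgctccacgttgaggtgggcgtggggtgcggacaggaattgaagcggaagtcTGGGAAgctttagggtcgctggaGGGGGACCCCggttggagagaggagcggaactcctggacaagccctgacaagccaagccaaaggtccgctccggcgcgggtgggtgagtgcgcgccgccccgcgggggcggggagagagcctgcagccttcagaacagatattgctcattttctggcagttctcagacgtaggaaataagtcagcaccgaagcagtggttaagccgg
The LTB window printed held 2 matches to the NF-kappaB consensus and none to the RBPJ core, the letters that the DNA-binding partner of NIC1 is known to prefer. A second LTB window, not printed, nearly coincides with it and held the same matches. The TNFRSF19 windows held 1 NF-kappaB match in the first and 1 RBPJ match in the second, and the TNFRSF11A window held none of the 3 motifs. Of the FAS windows, the first printed held 1 RBPJ match, the second held 1 RBPJ and 1 NF-kappaB match, and the other, which is not printed, held none. None of the windows printed held the STAT6 letters. Windows were found for 28 of the 45 genes, 37 windows in all, and 11 of these windows (9 genes) held an RBPJ match, 3 (3 genes) a STAT6 match and 12 (10 genes) an NF-kappaB match. Counted by window in the same way, over all 35116 RefSeq promoter windows of this length 24% held the RBPJ core, 6.44% the STAT6 site and 11.3% the NF-kappaB consensus. Windows of one gene can overlap, as those of LTB and of TNFSF14 do almost fully, so the same NF-kappaB letters were counted in more than 1 window. A match is a description of letters in the window, and its absence says only that those letters are not in it.

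Gene counts summed to 12410668 in the smallest library and 15099788 in the largest, and 15037 genes entered the tests. NOTCH1 was measured at 188 ± 40.5 CPM (counts per 1e6 on TMM-scaled library sizes, SD, n = 3) in unstimulated IRES cells, 287 ± 55.3 in NIC1 and 152 ± 23.4 in DNMAML cells, and the Notch target HES4 at 3.41 ± 1.28, 15.1 ± 3.24 and 2.65 ± 0.305 CPM in that order. The IL-4 target CISH went from 1.57 ± 0.434 to 114 ± 12.9 CPM in IRES cells. Of 14 monocyte and macrophage markers, 13 reached 1 CPM in a group, with summed levels between 1701 and 1982 CPM over all libraries. MRC1 did not, CD68 did so only in unstimulated NIC1 cells (1.12 CPM), and CD14 group means were 3.32 to 5.75 CPM. By the same rule 7 of 9 fibroblast and epithelial markers reached 1 CPM, with sums between 103 and 208 CPM. Most of that was COL1A1, with group means of 101 to 113 CPM. The libraries of experiment 2 stood apart from those of experiments 1 and 3, so library values follow below in the order of experiments 1, 2 and 3, and a blocked model, which takes the number as a term, stands beside the model without it. In bulk RNA, fewer cells that express a gene and less RNA per cell cannot be told apart.

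A gene was called detected where its mean reached 1 CPM in at least 1 group, and 31 of the 45 genes were: 11 of 18 ligands and 20 of 27 receptors. Of these, 27 were detected in all 6 groups. TNFRSF13C and TNFRSF8 were detected in 5 groups, TNFRSF11A in 3 and TNFRSF4 in 1. Just inside the threshold lay TNFRSF4 with a highest group mean of 1.08 CPM and TNFRSF13C with 1.57, and just outside it LTA with 0.882 and TNFSF12 with 0.463. The statistical filter kept 32 genes, the 31 detected and LTA.

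The 14 genes not detected included the ligands FASLG, CD40LG, TNFSF8, TNFSF11, TNFSF12, LTA and TNFSF12-TNFSF13, of which FASLG and CD40LG are known from activated T cells and TNFSF11 as the osteoclast factor RANKL. The receptors not detected were CD27, TNFRSF13B, TNFRSF17, TNFRSF25, TNFRSF11B, TNFRSF6B and EDAR, of which TNFRSF13B and TNFRSF17 are receptors of B-lineage cells. EDAR, TNFRSF6B and TNFSF12-TNFSF13 had 0 counts in all 18 libraries, which allows a level of up to 0.0121 CPM over all libraries (3 counts, counting error only). For TNFRSF6B and TNFSF12-TNFSF13 that limit does not apply, because 0% of their exon bases are free of other annotated genes. Reads there cannot be assigned to 1 gene, so a 0 does not measure the transcript. The same overlap leaves 44.5% of the exon bases of TNFSF13 and 66.8% of those of TNFSF12 free, and their counts are uncertain to that extent.

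Levels were compared between genes per kilobase of merged exons. The highest mean level over all libraries was that of TNFRSF12A, the receptor of TWEAK, at 32.6 CPM per kb. It was followed by CD40 at 31.2, TNFRSF1A (TNF receptor 1) at 28.0, the TRAIL death receptor TNFRSF10B at 25.8, TNFRSF21 (death receptor 6) at 21.7 and TNFRSF1B (TNF receptor 2) at 20.4 CPM per kb. The highest ligands were CD70 at 18.5 and TNFSF14 (LIGHT) at 17.0 CPM per kb. The 6 highest genes were receptors. Single libraries ranged from 16.5 to 56.1 CPM per kb for TNFRSF12A, from 26.7 to 37.5 for CD40, from 24.4 to 31.0 for TNFRSF1A and from 18.9 to 36.0 for TNFRSF10B. They ranged from 15.6 to 28.2 for TNFRSF21, from 13.1 to 27.8 for TNFRSF1B, from 9.71 to 27.4 for CD70 and from 9.55 to 30.4 for TNFSF14, so every neighbouring pair in this order overlapped.

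**Figure D1:**
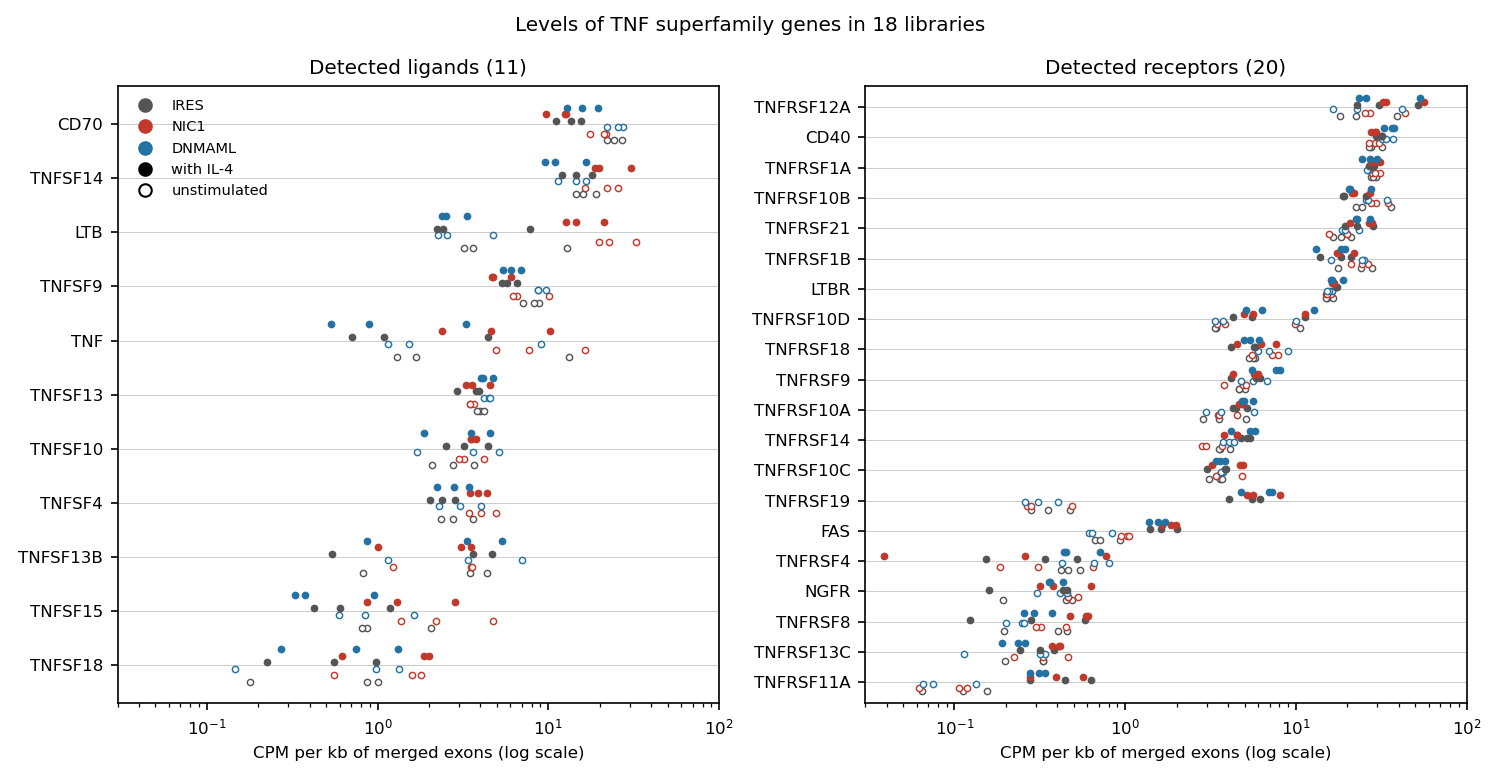
CPM per kb of merged exons (log axis) of the 11 detected ligands and 20 detected receptors, with 1 point per library, coloured by construct and filled with IL-4. TNFRSF12A leads with a mean of 32.6 CPM per kb, and TNFRSF19 and TNFRSF11A part by IL-4. LTB is higher in NIC1 than in the other constructs of the same condition, while IRES and DNMAML overlap.

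Among the ligands, group means in CPM ranged from 59.0 to 109.6 for TNFSF14, from 4.22 to 38.4 for LTB, from 17.8 to 38.3 for CD70, from 4.36 to 22.0 for TNFSF15 (TL1A), from 9.55 to 16.3 for TNFSF4 (OX40 ligand) and from 2.64 to 16.2 for TNF. They ranged from 8.59 to 15.0 for TNFSF9 (4-1BB ligand), from 9.86 to 12.5 for TNFSF10 (TRAIL), from 7.74 to 11.8 for TNFSF13B (BAFF), from 8.02 to 10.0 for TNFSF13 (APRIL) and from 1.18 to 3.00 for TNFSF18 (GITR ligand). LTB had the widest spread of group means among these ligands relative to its lowest, and TNFSF13 and TNFSF10 had narrow ones.

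Among the receptors, group means in CPM ranged from 109.6 to 157.6 for TNFRSF10B, from 105 to 117 for TNFRSF1A, from 96.7 to 108.3 for LTBR, from 66.6 to 90.5 for TNFRSF21, from 72.4 to 90.2 for CD40, from 64.1 to 90.0 for TNFRSF1B and from 49.0 to 75.2 for TNFRSF12A. They ranged from 29.1 to 44.8 for TNFRSF9 (4-1BB), from 1.65 to 32.3 for TNFRSF19, from 19.7 to 31.8 for TNFRSF14 (HVEM), from 20.1 to 28.6 for the decoy TRAIL receptor TNFRSF10D, from 11.3 to 15.1 for TNFRSF10A, from 7.11 to 10.0 for TNFRSF18 (GITR) and from 6.46 to 7.99 for the decoy TNFRSF10C. The low receptors were FAS at 2.95 to 7.76, TNFRSF11A (RANK) at 0.821 to 4.06, TNFRSF8 (CD30) at 0.879 to 2.09, NGFR at 1.45 to 2.01, TNFRSF13C (BAFF receptor) at 0.902 to 1.57 and TNFRSF4 (OX40) at 0.583 to 1.08 CPM. The 4 TRAIL receptors lie side by side within 205 kb of chromosome 8 and resemble each other, so some of their reads may align to more than 1 of them.

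IL-4 raised 3 receptor genes, TNFRSF19, TNFRSF11A and FAS, and lowered 1 ligand gene, CD70, and it did so in each of the 3 constructs. In each IL-4 response this made 4 of the 32 tested genes called by edgeR's quasi-likelihood test (adjusted p under 0.05). Over all tested genes the share called was 2.93% in IRES cells (2.02% higher, 0.911% lower), 3.05% in NIC1 cells (2.25% higher, 0.798% lower) and 3.28% in DNMAML cells (2.15% higher, 1.12% lower). The 3 responses have no libraries in common. 

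TNFRSF19 (TROY) is an orphan receptor best known from the nervous system and from Wnt-responsive stem cells (ENSG00000127863, chr13:23570370-23676104, plus strand, GRCh38). Without IL-4 it was at 1.81, 1.44 and 2.42 CPM in IRES, 1.37, 1.43 and 2.48 in NIC1, and 2.06, 1.32 and 1.58 in DNMAML cells. With IL-4 it was at 28.2, 20.7 and 31.4 CPM in IRES, 28.5, 26.4 and 41.1 in NIC1, and 37.0, 24.4 and 35.4 in DNMAML cells. The highest library without IL-4 lay far below the lowest with it, and experiment 2 was the lowest of the 3 in every IL-4 group. The log2 change was 3.82 ± 0.279 (SE, 14.2-fold, edgeR adjusted p = 4.43e-07) in IRES, 4.18 ± 0.284 (18.1-fold, adjusted p = 1.81e-07) in NIC1 and 4.27 ± 0.283 (19.3-fold, adjusted p = 1.48e-07) in DNMAML cells. It kept its call under every alternative run.

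TNFRSF11A encodes RANK, the receptor of RANKL on osteoclast precursors and dendritic cells (ENSG00000141655, chr18:62325287-62391292, plus strand). Unstimulated libraries had 1.02, 0.577 and 1.40 CPM in IRES, 1.06, 0.557 and 0.960 in NIC1, and 1.20, 0.586 and 0.677 in DNMAML cells. After IL-4 the values were 4.01, 2.48 and 5.69 CPM in IRES, 3.54, 2.5 and 5.06 in NIC1, and 3.06, 2.48 and 2.82 in DNMAML cells. The groups without and with IL-4 did not overlap in any construct. The log2 change was 2.02 ± 0.382 (4.06-fold, edgeR adjusted p = 0.00529) in IRES, 2.09 ± 0.395 (4.25-fold, adjusted p = 0.00515) in NIC1 and 1.74 ± 0.397 (3.35-fold, adjusted p = 0.0207) in DNMAML cells. Its ligand TNFSF11 had 2 counts over all libraries.

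FAS is the death receptor of FASLG (ENSG00000026103, chr10:88990582-89015785, plus strand). Levels without IL-4 were 2.83, 3.03 and 3.98 CPM in IRES, 4.33, 4.46 and 4.0 in NIC1, and 2.60, 2.71 and 3.54 in DNMAML cells. IL-4 libraries had 5.98, 8.57 and 6.86 CPM in IRES, 7.02, 7.86 and 8.41 in NIC1, and 5.86, 7.29 and 6.61 in DNMAML cells. Every library with IL-4 lay above every library without it. The log2 change was 1.12 ± 0.180 (2.17-fold, edgeR adjusted p = 0.00131) in IRES, 0.86 ± 0.176 (1.82-fold, adjusted p = 0.00978) in NIC1 and 1.16 ± 0.181 (2.23-fold, adjusted p = 0.000974) in DNMAML cells. Part of FAS overlaps ACTA2 on the other strand, and 91.1% of its exon bases are free of any other gene.

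CD70 is the ligand of the T cell costimulator CD27 (ENSG00000125726, chr19:6583183-6604103, minus strand). Levels without IL-4 were 41.5, 33.9 and 37.3 CPM in IRES, 33.2, 32.6 and 27.0 in NIC1, and 41.9, 33.9 and 39.2 in DNMAML cells. In IL-4 libraries it was at 23.7, 16.9 and 20.7 CPM in IRES, 19.2, 19.4 and 14.9 in NIC1, and 30.0, 19.7 and 24.1 in DNMAML cells. Within each construct all libraries with IL-4 were below all without it. The log2 change was -0.88 ± 0.160 (1.84-fold lower, edgeR adjusted p = 0.00403) in IRES, -0.80 ± 0.162 (1.74-fold lower, adjusted p = 0.00918) in NIC1 and -0.64 ± 0.159 (1.56-fold lower, adjusted p = 0.0361) in DNMAML cells.

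**Figure D2:**
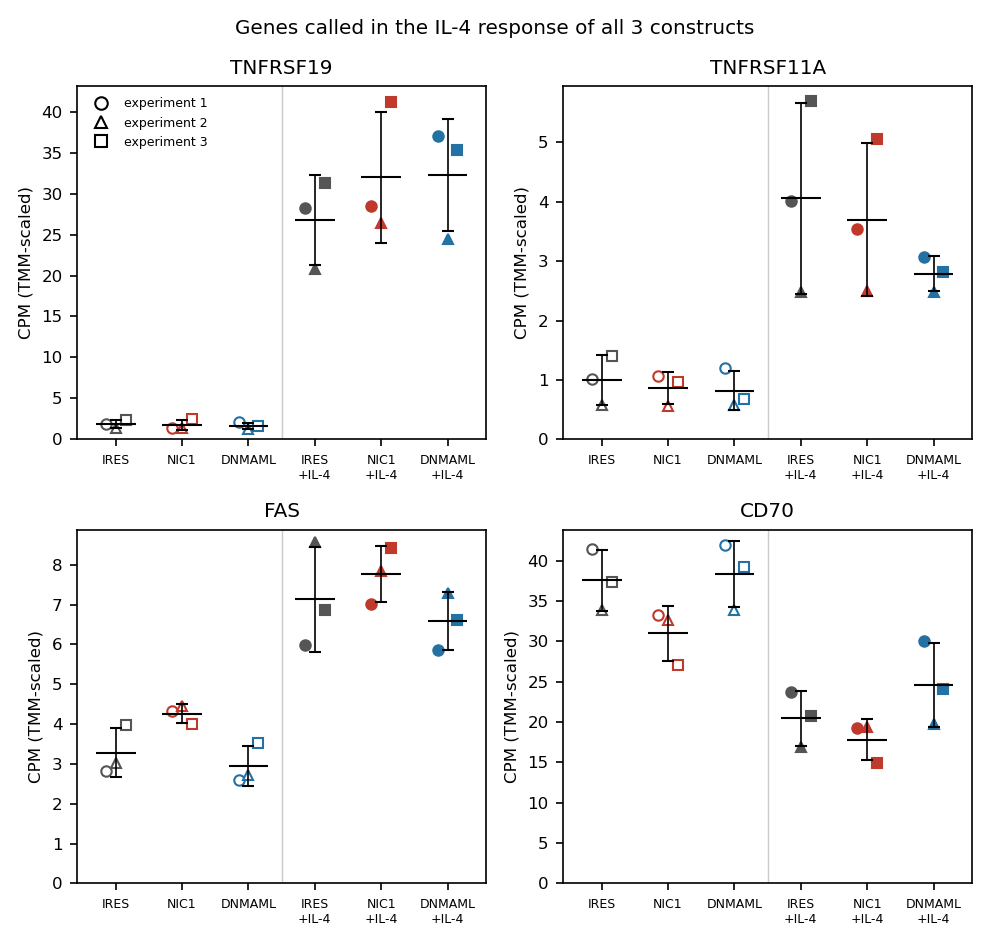
CPM of TNFRSF19, TNFRSF11A, FAS and CD70 in each library (marker shape: experiment), with the group mean and SD over 3 libraries. The 3 receptors are higher and CD70 is lower with IL-4 in all 3 constructs, without overlap between the groups of a construct.

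Leaving out 1 library ended some of these calls: CD70 in NIC1 cells without NIC1 unstimulated replicate 1 (adjusted p = 0.0509) or NIC1 with IL-4 replicate 3 (0.0664), and FAS in NIC1 cells without NIC1 unstimulated replicate 3 (0.0554) or NIC1 with IL-4 replicate 3 (0.0535). In DNMAML cells CD70 and TNFRSF11A each lost the call without 1 of 4 libraries, with adjusted p up to 0.160 for CD70 (without DNMAML with IL-4 replicate 2) and up to 0.113 for TNFRSF11A (without DNMAML unstimulated replicate 3), and the direction held each time. On the compared groups alone FAS (adjusted p = 0.0826) and TNFRSF11A (0.107) in IRES cells and CD70 in DNMAML cells (0.156) were not called.

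With the experiment block, 10 of the 32 genes were called in IRES cells, 6 higher and 4 lower, against 9.04% of all tested genes (4.87% higher, 4.18% lower). In NIC1 cells 11 were called, 6 higher and 5 lower, against 8.8% (5.13% higher, 3.66% lower), and in DNMAML cells 10, 5 higher and 5 lower, against 9.95% (5.01% higher, 4.94% lower). All of the ligands called with the block were lower with IL-4, and the receptors called were mostly higher. Of 12 tested ligands, 2, 5 and 0 had a log2 change above 0 in IRES, NIC1 and DNMAML cells in the model without the block, with medians of -0.34, -0.10 and -0.23. Of 20 receptors, 13 had one above 0 in each construct, with medians of 0.14, 0.22 and 0.18. Over all tested genes, 48.57%, 46.87% and 47.46% had a log2 change above 0.

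TNFSF15 is a ligand of TNFRSF25. Without IL-4 it was at 6.82, 16.2 and 6.39 CPM in IRES, 17.4, 37.7 and 10.8 in NIC1, and 4.66, 12.9 and 6.62 in DNMAML cells. The libraries with IL-4 had 3.35, 9.39 and 4.74 CPM in IRES, 10.2, 22.5 and 6.85 in NIC1, and 2.59, 7.53 and 2.95 in DNMAML cells. It was lower with IL-4 in each experiment and construct, while the groups overlapped. Experiment 2 was the highest library in every group. The blocked log2 change was -0.75 ± 0.186 (edgeR blocked adjusted p = 0.0116, without the block 0.917) in IRES, -0.73 ± 0.155 (0.00316, without the block 0.923) in NIC1 and -0.91 ± 0.199 (0.00391, without the block 0.804) in DNMAML cells.

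TNFRSF1B, the TNF receptor of mainly immune cells, was at 105, 66.7 and 90.7 CPM without IL-4 in IRES, 99.3, 79.5 and 91.2 in NIC1, and 93.9, 60.0 and 91.2 in DNMAML cells. Under IL-4 the levels were 79.0, 52.1 and 69.1, 82.1, 67.4 and 65.1, and 69.5, 49.4 and 73.4 CPM in the same order of constructs. Each experiment was lower with IL-4 and the groups overlapped. The blocked log2 change was -0.39 ± 0.0916 (edgeR blocked adjusted p = 0.00917), -0.33 ± 0.0914 (0.0289) and -0.34 ± 0.0919 (0.0201), against adjusted p of 0.636, 0.781 and 0.678 without the block.

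TNFRSF10B was at 116, 186 and 126 CPM without IL-4 in IRES, 153, 179 and 142 in NIC1, and 133, 177 and 137 in DNMAML cells. Given IL-4, cells had 97.3, 132 and 99.0, 113, 140 and 110, and 105, 143 and 107 CPM in that order. It too was lower with IL-4 in all 9 comparisons within an experiment, by log2 values between -0.25 and -0.49. The blocked log2 change was -0.37 ± 0.0626 (edgeR blocked adjusted p = 0.000267), -0.39 ± 0.0623 (0.000158) and -0.34 ± 0.0622 (0.000685), against 0.553, 0.552 and 0.628 without the block.

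The other genes called only with the block were fewer in constructs. TNFSF9 was lower with IL-4 in NIC1 (blocked log2 -0.56 ± 0.148, edgeR blocked adjusted p = 0.0168) and DNMAML cells (-0.56 ± 0.140, 0.0105). TNFRSF21 was higher in IRES (0.33 ± 0.0798, 0.00859) and NIC1 cells (0.44 ± 0.0799, 0.000593), and TNFRSF14, a receptor of TNFSF14, in IRES (0.44 ± 0.118, 0.0196) and NIC1 cells (0.43 ± 0.123, 0.0319). TNFRSF12A was higher in IRES cells (0.40 ± 0.114, 0.0354). TNFRSF10D was higher in NIC1 (0.40 ± 0.117, 0.0328) and DNMAML cells (0.55 ± 0.114, 0.00209). Within experiments 1, 2 and 3 its log2 change in NIC1 cells was 0.69, 0.21 and 0.37. Without the block it was 0.36. Leaving out 1 library moved that value between -0.11 (without NIC1 with IL-4 replicate 2) and 1.00 (without NIC1 unstimulated replicate 2). Each of these 2 fits lacks experiment 2, the highest library of both groups, in 1 group only. TNFRSF9 was higher in DNMAML cells (0.31 ± 0.0871, 0.0265). Without the block, none of these 10 changes had an adjusted p under 0.05, and the lowest was 0.0878 for TNFRSF14 in IRES cells.

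TNFSF10, TNFRSF1A and CD40 were not called in any IL-4 response with or without the block. TNFSF10, which binds the TRAIL receptors, was at 12.7, 7.29 and 9.59 CPM without IL-4 in IRES, 14.6, 11.2 and 10.4 in NIC1, and 12.7, 5.93 and 17.8 in DNMAML cells, and at 15.3, 8.72 and 11.2, 12.2, 13.1 and 12.2, and 12.3, 6.52 and 15.8 with IL-4. TNFRSF1A, the widely expressed TNF receptor, was at 110, 118 and 114, 112, 124 and 116, and 105, 105 and 105 CPM without IL-4, and at 114, 113 and 108, 115, 124 and 110, and 119, 97.8 and 108 with it. Its log2 changes with IL-4 were -0.03, -0.01 and 0.04, with 95% intervals that together spanned -0.17 to 0.18. Those of CD40 were 0.10, -0.01 and 0.06, with intervals that together spanned -0.16 to 0.26.

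TNF itself was lower with IL-4 in each experiment and construct, but was called in none. It was at 2.18, 22.1 and 2.81 CPM without IL-4 in IRES, 12.9, 27.6 and 8.24 in NIC1, and 1.93, 15.2 and 2.56 in DNMAML cells. Levels with IL-4 were 1.18, 7.44 and 1.82, 7.69, 17.2 and 4.02, and 1.5, 5.51 and 0.898 CPM in that order. The blocked log2 change was -1.25 ± 0.420 (edgeR blocked adjusted p = 0.0975), -0.81 ± 0.339 (0.214) and -1.23 ± 0.457 (0.131).

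No gene of the family was called as differing in its IL-4 response between constructs. The 3 tests of a difference called 0 of the 32 genes and 0% of all tested genes with edgeR, with or without the block. DESeq2 called 0 of the 32. In edgeR, with or without the block, 0 of the 32 had an unadjusted p under 0.05. Over all 15037 tested genes without the block, 121 (NIC1 minus IRES), 98 (DNMAML minus IRES) and 214 (NIC1 minus DNMAML) had one. For TNFRSF19 the difference in log2 response was 0.36 (95% interval -0.43 to 1.14) for NIC1 minus IRES, 0.45 (-0.33 to 1.23) for DNMAML minus IRES and -0.09 (-0.88 to 0.70) for NIC1 minus DNMAML. For FAS it was -0.26 (-0.75 to 0.23), 0.04 (-0.46 to 0.54) and -0.30 (-0.79 to 0.20), and for CD70 0.08 (-0.37 to 0.52), 0.24 (-0.20 to 0.68) and -0.16 (-0.60 to 0.28). For TNFRSF11A the intervals reached from -1.39 to 1.47, so a change of the response by more than 2-fold is within them. Within experiments the difference had one sign in all 3 for 11 of 32 genes (NIC1 minus IRES), 8 (DNMAML minus IRES) and 13 (NIC1 minus DNMAML). The share over all tested genes was not computed, and 3 signs can often agree by chance, so these counts are a description only. For TNFRSF19, NIC1 minus IRES was 0.41, 0.35 and 0.35 in experiments 1, 2 and 3 (blocked 0.36 ± 0.268), and DNMAML minus IRES was 0.21, 0.36 and 0.78. For TNFRSF8, with 7 to 33 counts per library, NIC1 minus IRES was 1.02, 1.42 and 0.31 (blocked 0.76 ± 0.525). Its DNMAML minus IRES was 0.66, 1.05 and 0.16. For CD70 DNMAML minus IRES was 0.33, 0.22 and 0.15 (blocked 0.24 ± 0.152). NIC1 minus IRES and DNMAML minus IRES share the IRES libraries, and NIC1 minus DNMAML shares libraries with both.

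Between constructs, the largest called difference of the family was that of LTB, which was higher in NIC1 cells. LTB encodes lymphotoxin beta, which anchors lymphotoxin alpha at the cell surface and binds LTBR (ENSG00000227507, chr6:31580525-31582522, minus strand). Between NIC1 and DNMAML cells, LTB was the 1 gene of 32 called by edgeR without the block, both without IL-4 (1.65% of all tested genes called, 1.04% higher and 0.612% lower) and with IL-4 (1.44%, 1.08% higher and 0.359% lower).

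LTB was at 34.8, 49.9 and 30.6 CPM in NIC1 cells without IL-4, against 5.59, 19.7 and 4.91 in IRES and 3.93, 7.25 and 3.46 in DNMAML cells. The IL-4 values were 22.4, 32.7 and 19.6 CPM in NIC1, 3.42, 11.9 and 3.72 in IRES and 3.88, 5.12 and 3.66 in DNMAML cells. The lowest NIC1 library was above the highest IRES and DNMAML library of the same condition, and experiment 2 was the highest of each group. NIC1 exceeded DNMAML by 2.98 ± 0.559 on the log2 scale (7.87-fold, edgeR adjusted p = 0.0153) without IL-4 and by 2.56 ± 0.560 (5.91-fold, adjusted p = 0.0361) with IL-4.

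NIC1 exceeded IRES in LTB by 1.93 ± 0.525 (3.80-fold) without IL-4 and by 1.98 ± 0.540 (3.93-fold) with IL-4, which did not pass (edgeR adjusted p = 0.257 and 0.274). With the block the log2 differences were 2.05 ± 0.242 (blocked adjusted p = 0.000242) and 2.07 ± 0.263 (0.000446). Within experiments 1, 2 and 3 they were 2.63, 1.34 and 2.63 without IL-4 and 2.70, 1.45 and 2.38 with it. Experiment 2 showed the smallest ratio, and its IRES library had the most LTB of the IRES libraries. Without IRES unstimulated replicate 2, the log2 difference without IL-4 was 2.86 and passed (edgeR adjusted p = 0.0422). That fit kept the experiment 2 library of NIC1 cells, so the 2 groups no longer held the same experiments. Its 2.86 lies above all 3 within-experiment differences without IL-4.

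The call of LTB between NIC1 and DNMAML cells was lost without NIC1 unstimulated replicate 2 (adjusted p = 0.0573) or DNMAML unstimulated replicates 1 or 3 (0.0952 and 0.0943), and, with IL-4, without any 1 of the 6 libraries compared (up to 0.169) or with no filter on low counts (0.103). With the block its adjusted p was 7.29e-06 and 3.81e-05, and the within-experiment log2 differences were 3.13, 2.78 and 3.13 without IL-4 and 2.52, 2.66 and 2.41 with it.

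LTB is known from lymphocytes, so markers of T, NK and B cells were set beside it. The T cell sum was 125 to 160 CPM in NIC1 against 88.1 to 106 in IRES and 87.7 to 97.2 in DNMAML libraries without IL-4, and 114 to 138 against 78.1 to 97.1 and 76.2 to 95.1 with IL-4. Of the 8 markers, CD3D, CD3G, TRAC and LCK reached 1 CPM in a group, and CD3D was at 32.2 CPM in NIC1 against 5.26 in IRES cells without IL-4. CD3E, CD2, CD5 and CD8A were at or below 0.304 CPM in every library, and none of the 8 was at 0 in all libraries. Of 4 NK cell markers 3 reached 1 CPM, and their sum was 14.3 to 23.5 CPM in NIC1 against 13.1 to 15.8 in IRES and 10.8 to 13.2 in DNMAML libraries without IL-4, and 20.6 to 27.0 against 17.1 to 20.2 and 15.1 to 16.1 with IL-4. GNLY among them was at 7.55 CPM in NIC1, 3.07 in IRES and 1.90 in DNMAML cells without IL-4. In that order NKG7 was at 6.34, 6.15 and 5.68 CPM and NCAM1 at 4.28, 5.12 and 3.95. Of the T cell markers, TRAC was at 108, 89.2 and 88.9, CD3G at 3.54, 0.0963 and 0.0444, and LCK at 1.23, 1.37 and 1.69 CPM. KLRD1, the remaining NK cell marker, was at 0.476 CPM in NIC1, 0.344 in IRES and 0.669 in DNMAML cells. Without IL-4, NCAM1, KLRD1 and LCK were thus not highest in NIC1 cells. Nor were CD2 and CD5, while CD3E and CD8A were, all 4 at very low levels. The part of these markers in the LTB difference was not tested.

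With the block, NIC1 cells had 4 genes higher than IRES cells and 0 lower without IL-4 (5.37% of all tested genes called, 3.44% higher and 1.94% lower). With IL-4 they had 6 higher and 0 lower (5.44%, 3.77% higher and 1.67% lower), and all of these were ligands. Other ligands did not share the direction. CD70 and TNFSF13 were lower in NIC1 than in IRES libraries without IL-4 and without overlap (27.0 to 33.2 against 33.9 to 41.5 CPM, and 7.91 to 8.36 against 8.73 to 9.51), and neither difference was called. The 4 were LTB, TNFSF15, TNFSF4 and TNFSF18, and with IL-4 TNF and TNFSF14 joined them. Without the block 0 of 32 passed in either condition. The share of all tested genes called was 0.233% without IL-4 (0.186% higher, 0.0466% lower) and 0.2% with it (0.173% higher, 0.0266% lower). Of the 32, 2 and 3 had an unadjusted p under 0.05, beside 1071 and 895 of all 15037 tested genes. DESeq2 called 1 of the 32 in each condition, LTB. Of the 12 tested ligands, 8 were above 0 without IL-4 (median log2 0.33) and 9 with it (median 0.65), and of 20 receptors 12 (median 0.01) and 15 (median 0.10), against 49.89% and 49.12% of all tested genes.

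TNF, the inflammatory cytokine that gives the family its name, lies beside LTB and LTA within 10.5 kb of chromosome 6. As given above, its NIC1 libraries were above those of IRES in each experiment, by log2 values of 2.55, 0.32 and 1.54 without IL-4 and 2.67, 1.20 and 1.12 with it. Experiment 2 was the highest library in every group, and the groups overlapped. The blocked log2 difference was 1.16 ± 0.346 (edgeR blocked adjusted p = 0.0783) without IL-4 and 1.60 ± 0.414 (0.0441) with it. Against DNMAML it was 1.57 ± 0.359 (0.0118) and 1.99 ± 0.432 (0.00882), and without the block 0 of these 4 differences passed (lowest adjusted p = 0.569).

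The third gene of that cluster, LTA, was below the detection threshold, at 0.761, 1.27 and 0.560 CPM in NIC1 and 0.290, 1.52 and 0.390 in IRES cells without IL-4. Its blocked log2 difference between NIC1 and DNMAML cells was 0.88 ± 0.478 without IL-4 (edgeR blocked adjusted p = 0.249) and 1.55 ± 0.510 with IL-4 (0.0509).

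TNFSF15 in the libraries given above was higher in NIC1 than in IRES cells in each experiment. The blocked log2 difference was 1.14 ± 0.161 (edgeR blocked adjusted p = 0.000155) without IL-4 and 1.16 ± 0.179 (0.000423) with it, and against DNMAML 1.42 ± 0.165 (6.15e-06) and 1.60 ± 0.187 (6.23e-06). The groups overlapped, and without the block the adjusted p of these differences lay between 0.320 and 0.936. TNFSF15 is thus a gene that was lower with IL-4 and higher with NIC1.

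TNFSF14 (LIGHT) shares the receptor LTBR with LTB. Without IL-4 it was at 69.2, 91.2 and 76.8 CPM in IRES, 105, 123 and 78.3 in NIC1, and 54.6, 79.0 and 69.3 in DNMAML cells. With IL-4 the libraries had 57.6, 85.9 and 69.7, 94.2, 145 and 89.7, and 52.2, 79.1 and 45.6 CPM in that order. With IL-4 all NIC1 libraries were above all IRES and DNMAML libraries. The blocked log2 difference of NIC1 from DNMAML was 0.59 ± 0.124 (edgeR blocked adjusted p = 0.00524) without IL-4 and 0.90 ± 0.124 (0.000201) with it, and that of NIC1 from IRES with IL-4 was 0.61 ± 0.123 (0.00808). Without the block the adjusted p of these 3 was 0.299, 0.104 and 0.650.

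TNFSF4 and TNFSF18, costimulatory ligands for T cells, are neighbours within 167 kb of chromosome 1. TNFSF4 was at 11.0, 9.31 and 14.3 CPM in IRES, 16.0, 13.5 and 19.4 in NIC1, and 11.9, 9.00 and 15.8 in DNMAML cells, all unstimulated, and at 9.46, 8.04 and 11.2, 15.3, 13.8 and 17.2, and 11.0, 8.85 and 13.5 with IL-4. Its NIC1 libraries with IL-4 did not overlap the other 2 constructs. The blocked log2 difference of NIC1 from IRES was 0.50 ± 0.0974 (edgeR blocked adjusted p = 0.00311) without IL-4 and 0.70 ± 0.0988 (0.000145) with it, and from DNMAML 0.42 ± 0.0962 (0.00481) and 0.48 ± 0.0966 (0.00167).

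TNFSF18 was at 1.74, 0.361 and 2.03 CPM in IRES, 3.19, 1.11 and 3.60 in NIC1, and 2.67, 0.293 and 1.96 in DNMAML cells, all unstimulated, and at 1.12, 0.451 and 1.97, 3.75, 1.25 and 4.02, and 1.5, 0.543 and 2.63 with IL-4. Experiment 2 was the lowest library in every group, the reverse of TNF and LTB. The blocked log2 difference of NIC1 from IRES was 0.96 ± 0.273 (edgeR blocked adjusted p = 0.0429) without IL-4 and 1.37 ± 0.269 (0.00306) with it. From DNMAML it was 0.96 ± 0.253 (0.0136) with IL-4 and did not pass without it.

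**Figure D3:**
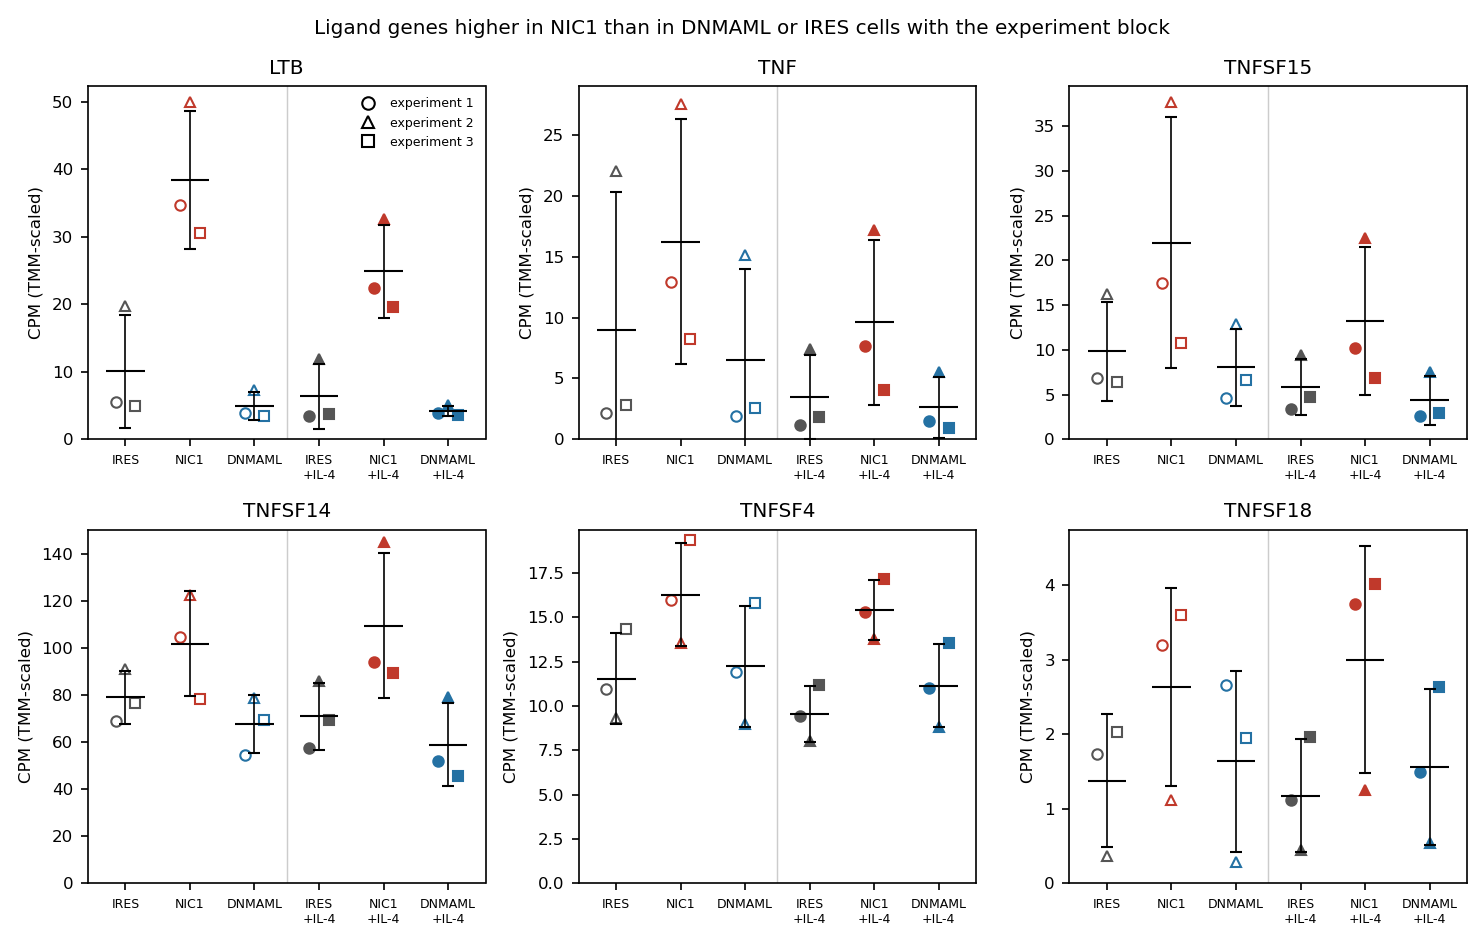
CPM of LTB, TNF, TNFSF15, TNFSF14, TNFSF4 and TNFSF18 in each library (marker shape: experiment), with the group mean and SD over 3 libraries, error bars drawn down to 0 at most. NIC1 libraries are the highest of their experiment, for LTB without any overlap between NIC1 and the other constructs of a condition, and experiment 2 (triangles) is highest for LTB, TNF and TNFSF15 and lowest for TNFSF18.

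With the block, 8 genes differed between NIC1 and DNMAML cells without IL-4, 6 higher and 2 lower (13.8% of all tested genes called, 7.37% higher and 6.48% lower). With IL-4 9 differed, 6 higher and 3 lower (12.6%, 7.3% higher and 5.29% lower). The higher genes were the ligands above and, without IL-4, FAS (blocked log2 0.54 ± 0.175, edgeR blocked adjusted p = 0.0444). CD40, the receptor by which T cells activate macrophages, was lower, by a blocked log2 difference of -0.25 ± 0.0742 (0.0290) without IL-4 and -0.32 ± 0.0736 (0.00566) with it. CD40 was at 69.5, 80.4 and 67.3 CPM in IRES, 73.3, 77.6 and 67.8 in NIC1, and 81.0, 84.8 and 93.8 in DNMAML cells, all unstimulated, and at 80.3, 79.1 and 74.2, 73.6, 74.8 and 69.6, and 94.7, 83.2 and 92.7 with IL-4. The DNMAML libraries were above the NIC1 libraries, and above the IRES libraries, in both conditions without overlap. Mean CD40 levels in NIC1 and IRES cells were 72.9 and 72.4 CPM without IL-4 and 72.6 and 77.8 with it. No difference of CD40 from IRES cells was called for either construct.

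TNFRSF9, the receptor of TNFSF9, was also lower in NIC1 than in DNMAML cells, by a blocked log2 difference of -0.32 ± 0.0912 (edgeR blocked adjusted p = 0.0231) without IL-4 and -0.41 ± 0.0877 (0.00259) with it. It was at 31.7, 29.5 and 29.3 CPM in IRES, 31.0, 24.0 and 32.2 in NIC1, and 35.7, 30.3 and 42.7 in DNMAML cells, all unstimulated, and at 38.9, 26.3 and 36.8, 37.8, 27.2 and 35.8, and 48.4, 35.1 and 51.0 with IL-4. Its groups overlapped. CD70 was lower in NIC1 than in DNMAML cells with IL-4 (-0.46 ± 0.114, 0.00911), with differences of -0.64, -0.02 and -0.69 in experiments 1, 2 and 3. Without the block the adjusted p of these receptor and CD70 differences lay above 0.05, at 0.0697 for CD40 with IL-4 and higher for the others.

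Between DNMAML and IRES cells 0 of the 32 genes passed in either condition with edgeR, with or without the block, or with DESeq2. An unadjusted p under 0.05 was found for 1 gene without and 2 with IL-4, and with the block for 3 and 8. Of all 15037 tested genes, 371 and 357 had one without the block, and 1231 and 1166 with it. Over all tested genes 0% were called without the block. With it 0.146% were called without IL-4 (0.0665% higher, 0.0798% lower) and 0.0931% with IL-4 (0.0399% higher, 0.0532% lower). LTB in DNMAML cells was at 4.88 ± 2.06 CPM against 10.1 ± 8.35 in IRES cells without IL-4, a log2 difference with a 95% interval from -2.14 to 0.04.

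**Figure D4:**
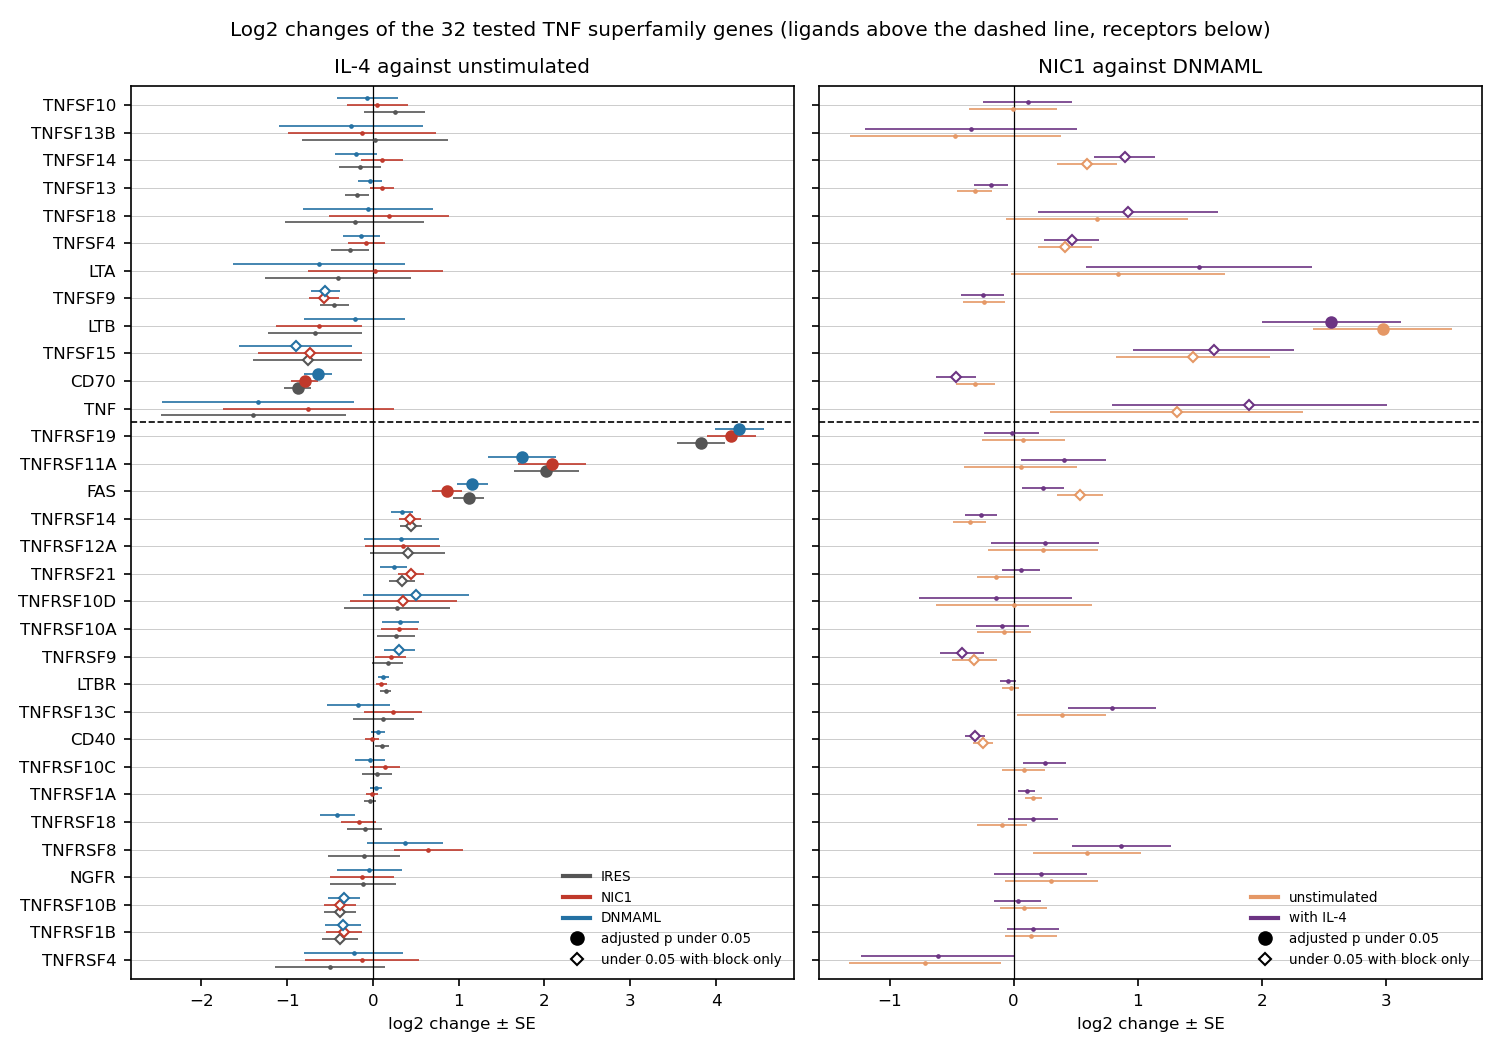
Log2 change ± SE (model without the block) of the 32 tested genes, on the left for IL-4 against unstimulated in 3 constructs and on the right for NIC1 against DNMAML in 2 conditions. Filled circles passed without the block and open diamonds only with it: TNFRSF19, TNFRSF11A, FAS and CD70 stand out on the left and LTB, with 2.98 and 2.56, on the right.

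Between experiment 2 and experiments 1 and 3, 6 of the 32 genes (18.75%) had a median difference of over 1 log2 unit over the 6 groups, beside 597 of all 15037 tested genes (3.97%). These shares are a description. TNF was 4.81-fold higher in experiment 2 than the mean of the others (median of 6 groups), LTA 3.82-fold, TNFSF15 2.57-fold and TNFRSF10D 2.51-fold, each in 6 of 6 groups. TNFSF13B was 4.44-fold lower and TNFSF18 3.29-fold lower, in all 6 groups. TNFSF13B, the B cell survival factor BAFF, was at 13.4, 2.53 and 10.7 CPM in IRES cells without IL-4 and at 14.3, 1.65 and 11.1 with it.

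**Figure D5:**
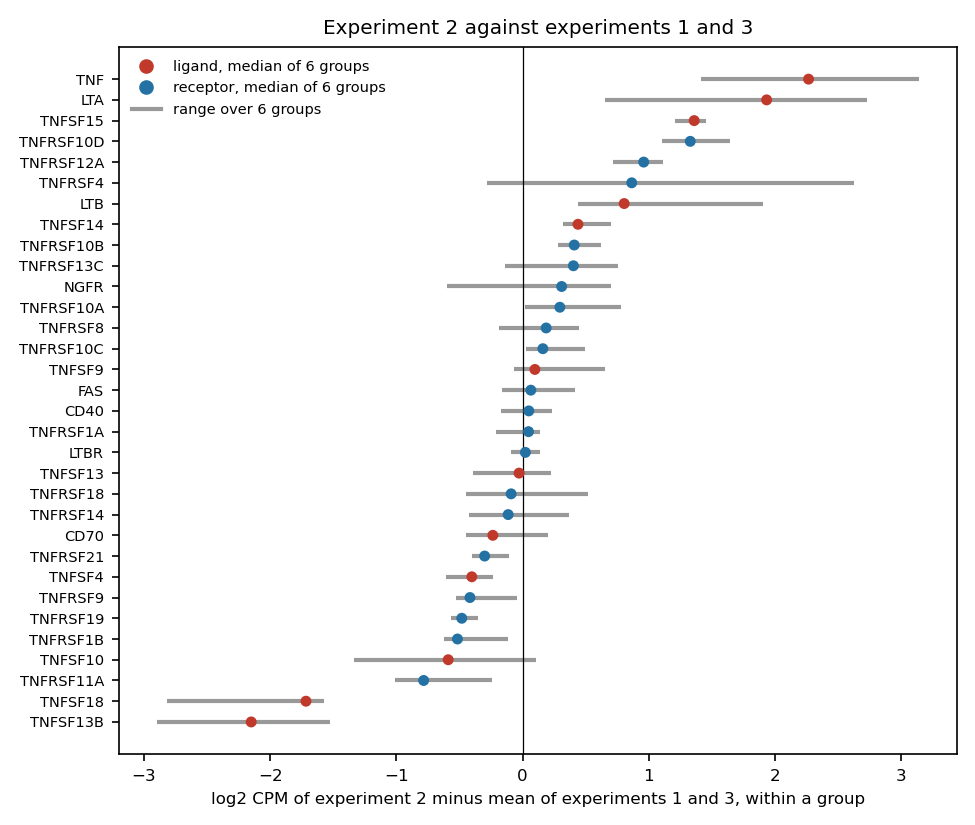
Log2 difference of experiment 2 from the mean of experiments 1 and 3 within each group, for the 32 tested genes, with the median (point) and range (line) over 6 groups. TNF, LTA, TNFSF15 and TNFRSF10D are over 1 log2 unit higher and TNFSF13B and TNFSF18 over 1 unit lower in experiment 2.

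Ligand and receptor genes were set side by side for 31 known pairs, of which 13 had both detected, 8 only the ligand and 8 only the receptor. Pairs with both detected included LTB (9.64 CPM per kb) and TNFSF14 (17.0) with LTBR (16.2), TNF (4.73) with TNFRSF1A and TNFRSF1B (28.0 and 20.4), and TNFSF10 (3.35) with TNFRSF10B (25.8). CD70 at 18.5 CPM per kb had CD27 at 0.00629, and TNFSF15 at 1.34 had TNFRSF25 at 0.0117. The reverse held for TNFRSF12A at 32.6 with TNFSF12 at 0.201, CD40 at 31.2 with CD40LG at 0.0181, FAS at 1.25 with FASLG at 0.0993 and TNFRSF11A at 0.245 with TNFSF11 at 0.0031. Of the 4 genes called with IL-4, FAS, TNFRSF11A and CD70 thus had a partner below the detection threshold, and no ligand was listed for TNFRSF19.

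Among 46 tested genes that carry or limit signals of the family, 1 rose and 1 fell in each IL-4 response without the block, beside 2.93%, 3.05% and 3.28% of all tested genes called in IRES, NIC1 and DNMAML cells. The gene that rose was NFKB1, an NF-kappaB subunit, by 0.47 ± 0.0702 (edgeR adjusted p = 0.00065) in IRES, 0.44 ± 0.0701 (0.00122) in NIC1 and 0.45 ± 0.0701 (0.000922) in DNMAML cells. The gene that fell was TNFAIP3, which encodes the NF-kappaB inhibitor A20, by a log2 change of -0.77 ± 0.135 (0.00286), -0.69 ± 0.134 (0.00681) and -0.74 ± 0.135 (0.00392). With the block, 2 rose and 6 fell in IRES, 3 and 3 in NIC1 and 2 and 6 in DNMAML cells, beside 9.04%, 8.8% and 9.95% of all tested genes called. TNFAIP8, a regulator of apoptosis, fell by a blocked log2 change of -0.31 ± 0.0811 (edgeR blocked adjusted p = 0.016) in IRES, -0.36 ± 0.081 (0.00571) in NIC1 and -0.27 ± 0.0804 (0.0405) in DNMAML cells. BIRC3, an inhibitor of apoptosis, fell by -0.48 ± 0.124 (0.0179) in IRES and -0.44 ± 0.121 (0.0262) in DNMAML cells. TANK, a TRAF-binding regulator, fell by -0.30 ± 0.0705 (0.00741) in IRES and -0.34 ± 0.0701 (0.00208) in DNMAML cells, and TRAF5 rose in NIC1 cells (0.63 ± 0.182, 0.0303).

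Between NIC1 and DNMAML cells with IL-4, 1 signalling gene of 46 was lower without the block, NFKBIE, another NF-kappaB inhibitor (-0.38 ± 0.0805, edgeR adjusted p = 0.0244). With the block 2 were higher and 6 lower without IL-4, and 3 and 6 with it, beside 13.8% and 12.6% of all tested genes called. RELB, the subunit that acts downstream of LTBR and CD40, was lower by -0.34 ± 0.0546 (edgeR blocked adjusted p = 0.000188) and -0.34 ± 0.0547 (0.000166). Without IL-4, REL was lower by -0.45 ± 0.102 (0.00459), the kinase gene IKBKB by -0.33 ± 0.0794 (0.00671) and NFKB2 by -0.28 ± 0.0837 (0.0304). With IL-4, the kinase gene MAP3K5 was higher by 0.37 ± 0.0683 (0.000766) and TRAF1 by 0.34 ± 0.0854 (0.0103).

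Between NIC1 and IRES cells 0 of the 46 signalling genes passed edgeR without the block in either condition. Of these genes 2 and 6 had an unadjusted p under 0.05, beside 1071 and 895 of all 15037 tested genes. With the block 1 was higher without IL-4 and 3 with it, beside 5.37% and 5.44% of all tested genes called, and 0 were lower. TRAF1, an adaptor of TNFRSF1B, was higher by 0.31 ± 0.0885 (edgeR blocked adjusted p = 0.0452) without and 0.39 ± 0.0857 (0.00808) with IL-4. With IL-4, MAP3K5 was higher by 0.32 ± 0.0682 (0.00691) and the inhibitor gene NFKBIA by 0.29 ± 0.0819 (0.0475).

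Of 11 tested genes for shedding and ligand processing, 1 rose in each IL-4 response without the block, beside the 2.93% to 3.28% of all tested genes given above. That gene was ZFP36, whose product speeds the decay of TNF mRNA, with 0.64 ± 0.119 (edgeR adjusted p = 0.00462) in IRES, 0.53 ± 0.119 (0.0176) in NIC1 and 0.50 ± 0.119 (0.0284) in DNMAML cells. With the block 2 rose and 1 fell in IRES, 2 and 1 in NIC1 and 1 and 2 in DNMAML cells, beside 9.04%, 8.8% and 9.95% of all tested genes. ADAM17, the TNF convertase, fell by -0.25 ± 0.0603 (edgeR blocked adjusted p = 0.00863), -0.26 ± 0.0602 (0.00631) and -0.23 ± 0.0601 (0.0138). FURIN, a proprotein convertase, rose in IRES (0.21 ± 0.0573, 0.0207) and NIC1 cells (0.26 ± 0.0572, 0.00336), and ZFP36L1, a relative of ZFP36, fell in DNMAML cells (-0.33 ± 0.0726, 0.00374).

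MMP7, a protease that can release FASLG, was the 1 gene of these 11 called between NIC1 and DNMAML cells without the block, higher in NIC1 cells by 2.11 ± 0.493 (edgeR adjusted p = 0.0483) without and 2.23 ± 0.494 (0.0385) with IL-4. With the block 4 were higher and 0 lower in each condition, beside 13.8% and 12.6% of all tested genes. Besides MMP7 these were TIMP3, an inhibitor of ADAM17, by 0.78 ± 0.181 (edgeR blocked adjusted p = 0.0141) and 0.84 ± 0.190 (0.0117), ZFP36L1 by 0.46 ± 0.0724 (0.00016) and 0.63 ± 0.0726 (4.3e-06), and ZFP36 by 0.44 ± 0.0977 (0.00535) and 0.48 ± 0.0951 (0.00253). Against IRES, MMP7, ZFP36 and ZFP36L1 were higher in NIC1 cells with the block in both conditions, MMP7 by 1.50 ± 0.115 (1.93e-06) and 1.26 ± 0.112 (6.99e-06). MMP7 was lower in DNMAML than in IRES cells with IL-4 with the block (-0.95 ± 0.124, 0.0054).

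RELT, a receptor of the superfamily whose symbol falls outside the rule, rose with IL-4 by 0.42 ± 0.0955 (edgeR adjusted p = 0.0198) in IRES and 0.48 ± 0.0955 (0.00834) in DNMAML cells, and by 0.36 ± 0.0844 in NIC1 cells with the block (blocked adjusted p = 0.00708, without the block 0.0593). TRAF3IP3, which encodes a TRAF3-interacting protein, fell with the block in NIC1 (-0.55 ± 0.122, edgeR blocked adjusted p = 0.00543) and DNMAML cells (-0.42 ± 0.123, 0.0368). Of the 6 such genes listed, 4 were tested.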

How the data were processed

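The members and gene lists were chosen with earlier results of these data known. The deposited files hold whole-number counts of reads per gene that the authors made from their alignments. The submitters' processing notes name FastQC, Trimmomatic, HISAT2, HTSeq, DESeq2 and build GRCh38.p12. Tool versions, the annotation release and the strand setting were not stated there, so reads of overlapping antisense genes cannot be told apart. Coordinates (GRCh38, 1-based), gene types and exons come from GENCODE 29, and symbols from a separate list of gene names matched by Ensembl ID. Entries that name no gene (23.8% to 30.9% of reads) were left out. Counts in genes were 12410668 to 15099788 per library.

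Samples were grouped by the labels. All 18 libraries were fitted in 1 model of 6 group means with edgeR 4.0.16 (R 4.3.3; filterByExpr, TMM, quasi-likelihood F test, Benjamini-Hochberg over 15037 genes, threshold 0.05), tested on simulated data. SE derive from the F statistic and 95% intervals are normal. Level was expressed as CPM on TMM-scaled sizes, and per kb of merged exons. Within-experiment differences use a prior count of 0.5. The contrasts were the IL-4 response of each construct, each pair of constructs without and with IL-4, and the 3 differences in IL-4 response.

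Experiment numbers paired the libraries: deviations from group means correlated in 45 of 45 pairs of one number (r 0.206 to 0.759, median 0.466; median -0.395 over 90 pairs of different numbers), and 18 of 18 libraries had their closest match within their own number. A blocked model was therefore fitted too. The deviations of a group sum to 0 for each gene, so the negative median over different numbers is no separate sign of pairing. Neither model ties the unstimulated and the IL-4 library that share a construct and a number. Blocked values are printed where they change a call.

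Values in every library were given for genes called in any contrast, for those called with the block in 3 or more contrasts, and for TNF, TNFSF10, CD40, TNFRSF1A and TNFRSF1B; other genes called with the block got their log2 change and p. From each list the 4 called genes of largest change in a contrast were named, and some others with them. Alternatives were the block, RLE size factors, DESeq2 1.42.0, no filter on low counts, the compared groups alone, each library left out, and leaving out both libraries in which most genes were detected (IRES unstimulated replicate 3, DNMAML with IL-4 replicate 3).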

Additional observations from a re-analysis of the deposited data

How the results depend on the processing

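The 14 calls made without the block kept their sign in 168 of 168 alternative fits and passed the threshold in 140, and 8 of the 14 passed with each library left out. With the replicate block the number of genes called went from 4 to 10 (IL-4 in IRES), from 4 to 11 (NIC1) and from 4 to 10 (DNMAML), from 0 to 4 and 6 (NIC1 against IRES without and with IL-4) and from 1 to 8 and 9 (NIC1 against DNMAML); it changed no count elsewhere. DESeq2 called 1 and 1 for NIC1 against IRES and 3 for NIC1 against DNMAML with IL-4. On the compared groups alone the IRES response had 2, with FAS at an adjusted p of 0.0826 and TNFRSF11A at 0.107, and CD70 in DNMAML cells was at 0.156. Without the low-count filter LTB in NIC1 against DNMAML with IL-4 had an adjusted p of 0.103 and 0 genes were called. Without IRES unstimulated replicate 3 and DNMAML with IL-4 replicate 3 together, 2 were called for IL-4 in DNMAML cells and 0 for NIC1 against DNMAML with IL-4. Leaving out each library gave 4 to 4, 2 to 5 and 2 to 3 calls for IL-4 in IRES, NIC1 and DNMAML cells, 0 to 1 for NIC1 against IRES and 0 to 1 for NIC1 against DNMAML without IL-4, and 0 to 2 for NIC1 against DNMAML with it. The log2 change of TNFRSF10D with IL-4 in NIC1 cells lay between -0.11 (without NIC1 with IL-4 replicate 2) and 1.00 when 1 library was left out. The causes were not tested. Detection gave 30 to 32 genes when an experiment was left out and 29 at a mean of 2 CPM.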

Other observations

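TNFSF9, CD70 and TNFSF14 lie side by side within 140 kb of chromosome 19. With IL-4 the libraries of TNFSF9 and CD70 were lower without overlap in all 3 constructs, while TNFSF14 was not called in any IL-4 response, with or without the block. The receptors TNFRSF8 (CD30), TNFRSF13C (BAFF receptor), TNFRSF4 (OX40) and NGFR were called in no comparison.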
